A study of Rattus norvegicus with 2 samples.

Results

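The genes described here encode the lectican and hyaluronan matrix of the brain: the lecticans Acan, Bcan, Ncan and Vcan, the link protein Hapln1, the tenascins Tnr and Tnc, the hyaluronan synthase Has2, the hyaluronan receptor Cd44 and the receptor phosphatase Ptprz1. They were taken by symbol, and all 10 were found among the 21224 gene rows, each on 1 row. Messenger RNA came from cortical neurons of E18 rat embryos in a siYthdf3 group, given small interfering RNA against the m6A reader Ythdf3, and a siNC group, given negative control small interfering RNA. Each group had 1 library. The differences below therefore rest on a single pair of libraries, without replicates and without p-values. The labels name neither how long the small interfering RNA acted nor the number of embryos.

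Lecticans are chondroitin sulfate proteoglycans whose amino-terminal end binds hyaluronan, a long sugar polymer, and whose carboxy-terminal end binds tenascins. Link proteins lock the lectican onto hyaluronan, and tenascin-R can bridge several lecticans into a net. This matrix fills the space between cells in the developing cortex, guides migrating cells and growing axons, and later condenses around some neurons as perineuronal nets. Cd44 anchors hyaluronan to the cell surface, and Ptprz1 is itself a chondroitin sulfate proteoglycan of glia and their precursors that binds tenascins and the growth factors pleiotrophin and midkine.

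Reads assigned to genes numbered 22586543 in siYthdf3 and 15392218 in siNC. Levels are FPKM, assigned reads scaled by library depth and gene length, so they can be compared between genes. Intervals are exact 95% intervals that cover counting error only. The targeted gene Ythdf3 was at 6.93 FPKM in the siYthdf3 library and 9.38 FPKM in the siNC library, for a ratio of 0.739 (counting interval 0.675 to 0.809). Wwtr1, named in the title of the study, was at 2.96 FPKM against 6.23 FPKM, for a ratio of 0.475 (counting interval 0.409 to 0.550). All 11 neuronal markers examined were above 1 FPKM on average, and so were all 10 astrocyte markers and all 9 radial glia and progenitor markers. That level was reached by 13172 of the 21224 gene rows. The libraries thus held RNA of glial and progenitor marker genes beside that of neuronal ones, and which cells it came from was not tested.

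In both libraries the matrix genes spanned more than 3 orders of magnitude, with neurocan at the top and link protein 1 at the bottom. Ncan was at 270 FPKM in siYthdf3 against 231 FPKM in siNC, above 98.9% and 98.4% of the 13172 genes with an average of 1 FPKM or more. Tnc followed at 117 FPKM against 105 FPKM and Ptprz1 at 62.1 FPKM against 62.4 FPKM. The next places differed between the libraries. In siYthdf3, Cd44 at 49.0 FPKM and Vcan at 48.3 FPKM had overlapping intervals, while in siNC Vcan at 39.6 FPKM stood above Cd44 at 24.0 FPKM with intervals apart. Bcan, Tnr and Has2 came next in this order in both libraries. Acan, the aggrecan of mature perineuronal nets, and Hapln1 were close to silent, and their intervals overlapped in each library. Apart from these pairs, no neighbours in the order had overlapping intervals.

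**Figure D1:**
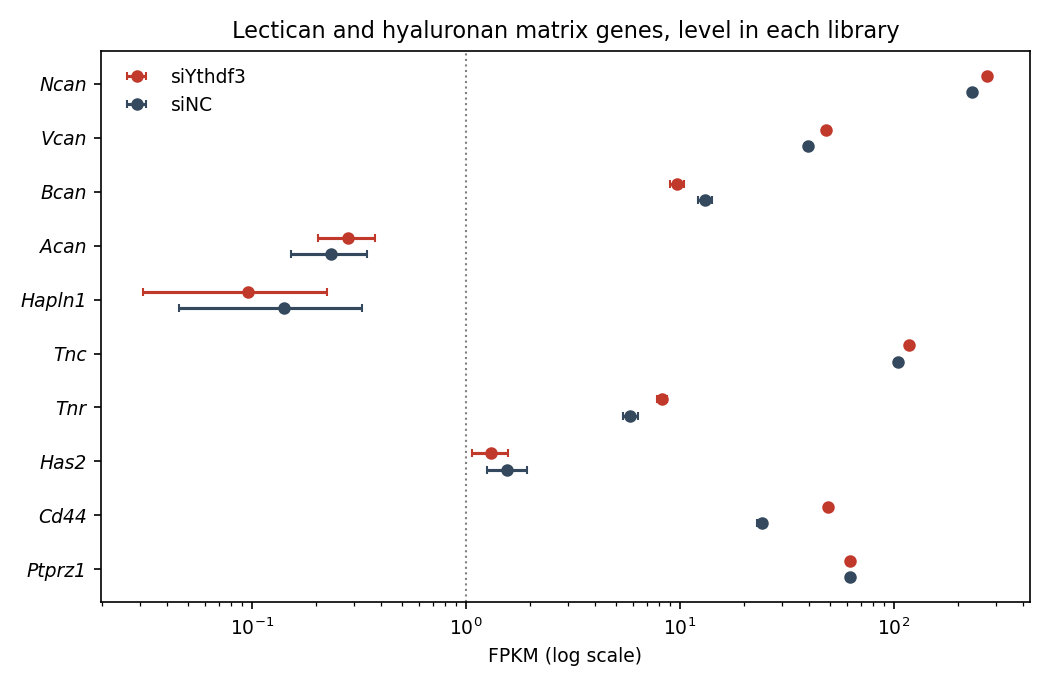
FPKM (log axis) of the 10 genes in the siYthdf3 library (red, upper point) and the siNC library (dark, lower point), with exact 95% counting intervals; the dotted line marks 1 FPKM. Cd44 shows the widest gap among the abundant genes, at 49.0 FPKM against 24.0 FPKM, while the Ptprz1 points nearly coincide at 62.1 FPKM and 62.4 FPKM.

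Differences were measured as the log2 ratio of siYthdf3 over siNC after adding 0.5 FPKM. A gene counted as different at 2-fold or more, a rule of size and not a test. Of the 8 genes with an average of 1 FPKM or more, 1 was at least 2-fold higher, Cd44, and 0 were at least 2-fold lower. Among all 13172 genes, 0.706% were that much higher and 0.896% that much lower. At a 1.5-fold rule the counts were also 1 and 0, beside 2.41% and 3.95% of all genes. Depth decides how often a counting interval lies away from 1, so intervals were set against the 6218 genes with at least 1000 reads over both libraries, to which 7 of the 8 genes belong, all but Has2. Of these 7, the interval lay above 1 for 5, Cd44, Tnr, Vcan, Ncan and Tnc, where 30.0% of the 6218 genes had such an interval. It lay below 1 for 1, Bcan, where 29.3% did. These shares are not matched to depth above 1000 reads. Ncan had 50281 reads over both libraries, Tnc 32018 and Vcan 21013, so small differences can move their intervals away from 1. Of the genes within 1.5-fold of the mean FPKM of Tnc, 40.0% had a log2 ratio at least as far from 0. The share was 30.0% for Ncan, 15.4% for Vcan, 10.1% for Tnr, 9.73% for Bcan and 0.319% for Cd44. For the targeted gene Ythdf3 it was 11.6%. The median log2 ratio of the 8 was 0.19, beside -0.01 for the 13172 genes. Without the filter on level, the median of all 10 was 0.12, beside 0.004 for the 21224 gene rows.

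**Figure D2:**
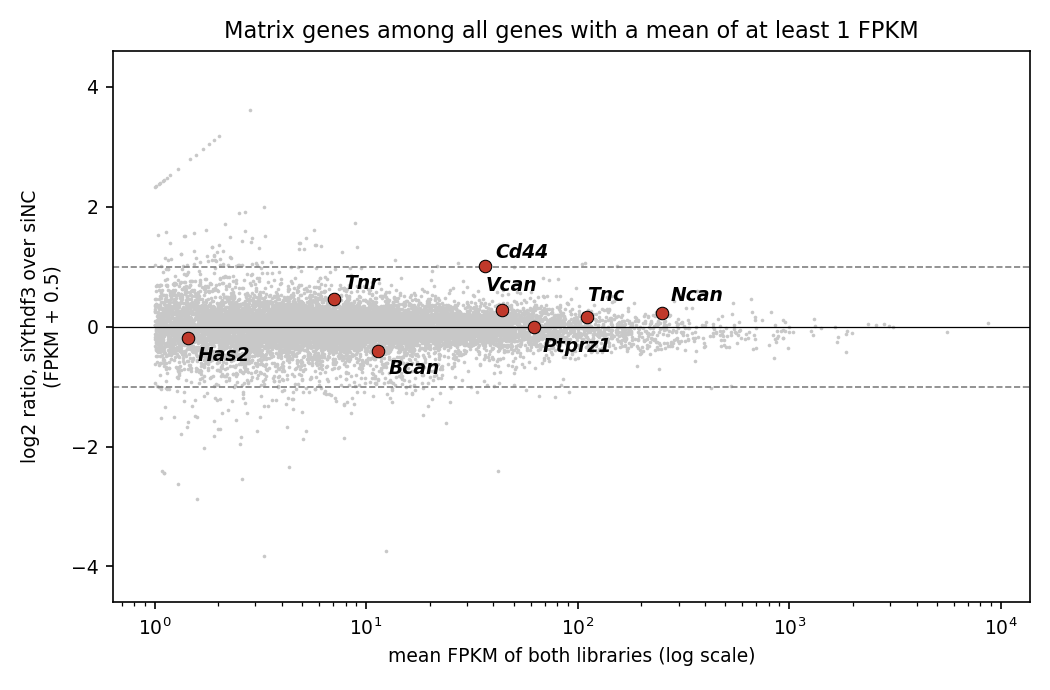
Log2 ratio of siYthdf3 over siNC (FPKM + 0.5) against the mean FPKM of both libraries (log axis) for the 13172 genes with an average of 1 FPKM or more (grey), with the 8 matrix genes above that level in red; dashed lines mark 2-fold. Cd44, at 1.01, lies on the upper 2-fold line at a mean level where few genes reach it, and the other 7 lie between -0.41 and 0.45.

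The lecticans did not move as 1 family. Ncan (ENSRNOG00000048036, chromosome 16, 19301969 to 19328436, plus strand), the most abundant proteoglycan of the set, had 31772 reads in siYthdf3 and 18509 in siNC. Its FPKM ratio was 1.17 (counting interval 1.15 to 1.19). Vcan (ENSRNOG00000029212, chromosome 2, 20761718 to 20860539, minus strand) encodes versican, a proteoglycan of the embryonic matrix whose splice forms differ in their chondroitin sulfate regions and were not told apart by these gene totals. It was at 48.3 FPKM against 39.6 FPKM, for a ratio of 1.22 (counting interval 1.19 to 1.26), so that Ncan and Vcan had overlapping intervals.

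Bcan (ENSRNOG00000018798, chromosome 2, 173454482 to 173467460, minus strand) went the other way. Brevican, its product, is a short lectican that glial cells make as the brain matures. It was at 9.67 FPKM in siYthdf3 against 13.0 FPKM in siNC, from 713 and 656 reads, for a ratio of 0.741 (counting interval 0.665 to 0.825). Its log2 ratio was -0.41, and 973 of the 13172 genes had a lower one. The quotient of Vcan over Bcan was 4.99 in siYthdf3 and 3.03 in siNC, and that of Ncan over Bcan was 28.0 and 17.7.

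Acan (ENSRNOG00000028992, chromosome 1, 132981582 to 133043627, plus strand) was at 0.281 FPKM in siYthdf3 against 0.234 FPKM in siNC, from 44 and 25 reads. Its ratio of 1.20 had an interval of 0.718 to 2.04, so no difference was detectable at this depth. Added up, the lecticans reached 329 FPKM against 284 FPKM, for a ratio of 1.16 (counting interval 1.14 to 1.18). Ncan made up 82.3% of this sum in siYthdf3 and 81.4% in siNC, and Vcan 14.7% and 13.9%. Bcan supplied 2.94% and 4.59%, and Acan 0.0854% and 0.0824%. The makeup of the lectican sum was thus close in both libraries, with the smaller share of Bcan as its widest relative difference.

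Each lectican gene lies beside a link protein gene, and in the deposited table no other gene row lay between the partners of any of the 4 pairs. The gaps were 2.84 kilobases between Acan and Hapln3, 4.67 between Ncan and Hapln4, 23.7 between Bcan and Hapln2 and 67.9 between Vcan and Hapln1. Levels did not follow this pairing. Hapln1 (ENSRNOG00000032002, chromosome 2, 20631640 to 20693777, plus strand), which encodes the link protein of cartilage and of perineuronal nets, had 5 reads in each library beside the 13482 and 7531 reads of its neighbour Vcan. Its level was 0.0957 FPKM in siYthdf3 against 0.140 FPKM in siNC, for a ratio of 0.681 with an interval of 0.157 to 2.96, which settles no direction. Hapln3 was the link protein gene with the highest level, 3.07 FPKM against 3.55 FPKM, for a ratio of 0.866 (counting interval 0.75 to 1.00, its upper end just under 1), next to the almost silent Acan. Hapln4, a link protein gene of the brain chosen after its values were seen, was at 0.360 FPKM against 0.106 FPKM, from 30 and 6 reads, for a ratio of 3.41 with an interval above 1. Hapln2, likewise chosen after its values were seen, had 2 reads in siYthdf3 and 0 in siNC.

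The tenascins were both higher in siYthdf3, by unequal amounts. Tnr (ENSRNOG00000002468, chromosome 13, 72091585 to 72167641, plus strand) encodes tenascin-R, the tenascin restricted to the nervous system that binds lecticans through their lectin domain. It was at 8.21 FPKM in siYthdf3 against 5.86 FPKM in siNC, from 1263 and 614 reads. The ratio of 1.40 (counting interval 1.27 to 1.55) was the second highest of the 8 genes, and its interval met neither that of Cd44 above it nor that of Vcan below it. Tnc (ENSRNOG00000058645, chromosome 5, 77375851 to 77460624, minus strand) encodes tenascin-C, made by radial glia and immature astrocytes. It was at 117 FPKM against 105 FPKM, for a ratio of 1.11 (counting interval 1.09 to 1.14). Tenascin-C messenger RNA was 14.2 times as abundant per length as that of tenascin-R in siYthdf3 and 17.9 times in siNC.

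Of the genes that make and bind hyaluronan, the synthase Has2 (ENSRNOG00000004854, chromosome 7, 88113326 to 88128933, minus strand), whose product extrudes hyaluronan through the plasma membrane, was at 1.30 FPKM in siYthdf3 against 1.56 FPKM in siNC. With 108 and 88 reads its ratio of 0.836 had an interval of 0.625 to 1.12, which includes 1. The other synthase genes, chosen after their values were seen, also had intervals that include 1, with Has1 at 1.08 FPKM against 0.651 FPKM and Has3 at 0.931 FPKM against 0.753 FPKM.

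Cd44 (ENSRNOG00000006094, chromosome 3, 89157058 to 89244456, minus strand), the hyaluronan receptor, had the largest difference of the set. It held 4695 reads in siYthdf3 and 1570 in siNC, or 49.0 FPKM against 24.0 FPKM, for a ratio of 2.04 (counting interval 1.92 to 2.16). The log2 ratio was 1.01, and 89 of the 13172 genes had a higher one. Among the 1568 other genes within 1.5-fold of its mean FPKM, 99.9% had a lower log2 ratio. The call at 2-fold is narrow. The log2 ratio fell just short of 1 at a pseudocount of 1 FPKM and after a trend with gene length was removed, and both values round to 1.00. Splice forms of Cd44 were not told apart. The quotient of Cd44 over Has2 was 37.6 in siYthdf3 and 15.4 in siNC.

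Ptprz1 (ENSRNOG00000006030, chromosome 4, 51397601 to 51595218, plus strand) was the gene with the closest values, 62.1 FPKM in siYthdf3 against 62.4 FPKM in siNC, from 11012 and 7546 reads. Its ratio of 0.994 had an interval of 0.966 to 1.02, so counting error leaves room for a difference of only a few percent either way. The sign of its log2 ratio depended on the scaling, and with a trend with gene length removed it was -0.10. Transcripts that encode the secreted form, phosphacan, are part of this total. The quotient of Cd44 over Ptprz1 was 0.789 in siYthdf3 and 0.385 in siNC.

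**Figure D3:**
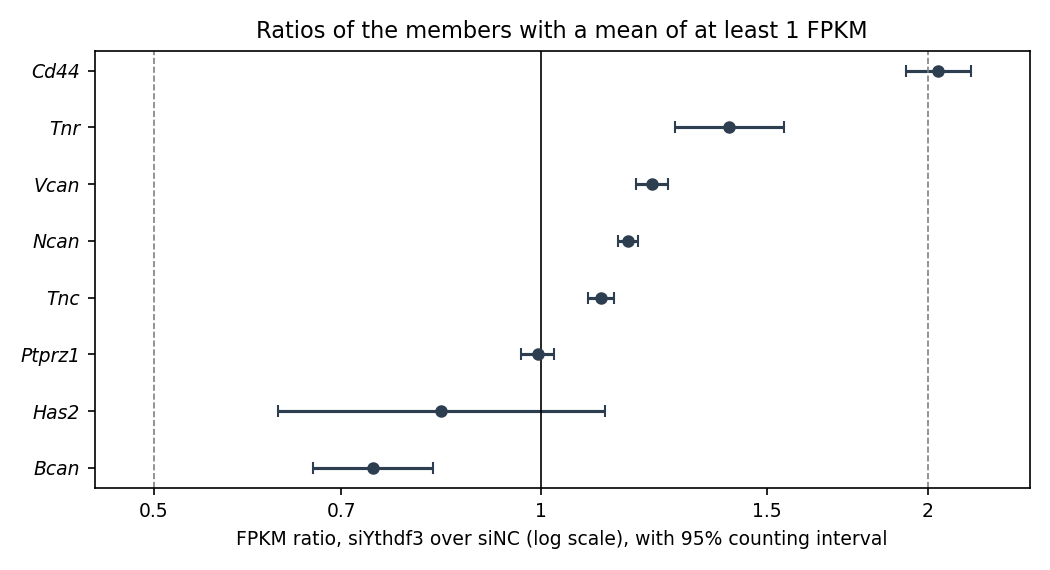
FPKM ratio of siYthdf3 over siNC (log axis) with exact 95% counting intervals for the 8 genes with an average of 1 FPKM or more, ordered by ratio; dashed lines mark 2-fold and the solid line a ratio of 1. Cd44 at 2.04 and Tnr at 1.40 stand apart from the rest, Vcan, Ncan and Tnc lie between 1.11 and 1.22, and Bcan at 0.741 lies below 1.

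Gene length runs through these values. The matrix genes are long, with a median of 6006 bases against 2917 bases for all genes tested, and across the table the ratio grew with length. Of 10 bins by length, the one with the shortest genes had a median log2 ratio of -0.08 and the one with the longest 0.11. The 619 genes within 1.5-fold of the 12368 bases of Vcan had a median log2 ratio of 0.13, beside 0.28 for Vcan itself. With the trend removed, Vcan was at 0.14, Tnc at 0.07 and Ncan at 0.19, against 0.28, 0.15 and 0.23 before. Tnr was then at 0.38 and Bcan at -0.41. Every one of the 5 genes with an interval above 1 kept it, and Ptprz1 joined Bcan with an interval below 1.

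Promoter sequences of 8 of the 10 genes were found in the RefSeq table of the GRCr8 assembly, and Has2 and Ptprz1 were not matched. Those of the 3 genes with the largest differences are printed, since they show how unlike the start regions of genes in the same matrix are. Each runs from 250 bases before the annotated start to 50 after it on the strand of the gene, with CpG dinucleotides in capitals. The Cd44 stretch is chr3:109699375-109699674 on the minus strand, that of Tnr is chr13:74624776-74625075 on the plus strand and that of Bcan is chr2:175765265-175765564 on the minus strand.
Cd44: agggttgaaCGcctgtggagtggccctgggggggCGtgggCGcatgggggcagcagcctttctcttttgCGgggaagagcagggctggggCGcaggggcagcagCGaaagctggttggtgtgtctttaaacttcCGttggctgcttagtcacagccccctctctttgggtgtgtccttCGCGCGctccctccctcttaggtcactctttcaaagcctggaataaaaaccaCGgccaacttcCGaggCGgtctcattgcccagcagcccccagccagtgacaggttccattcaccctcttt
Tnr: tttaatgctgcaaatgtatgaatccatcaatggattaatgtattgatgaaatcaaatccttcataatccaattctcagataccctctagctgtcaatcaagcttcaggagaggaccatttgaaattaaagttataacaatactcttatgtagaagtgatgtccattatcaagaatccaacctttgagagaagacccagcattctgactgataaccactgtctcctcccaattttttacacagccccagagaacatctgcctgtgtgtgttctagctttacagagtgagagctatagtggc
Bcan: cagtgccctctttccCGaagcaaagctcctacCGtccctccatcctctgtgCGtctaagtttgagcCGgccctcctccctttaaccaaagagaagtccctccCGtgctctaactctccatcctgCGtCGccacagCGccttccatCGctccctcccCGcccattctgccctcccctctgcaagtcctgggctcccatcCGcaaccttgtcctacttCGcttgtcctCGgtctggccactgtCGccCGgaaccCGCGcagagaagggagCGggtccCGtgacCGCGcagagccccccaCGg

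Cd44 had 13 CpG dinucleotides and a GC content of 60.3%, Tnr had 0 and 38.3%, and Bcan had 22 and 64.0%, where the medians over 33469 promoters of this length were 7 and 51.7%. The Tnr start region thus lacks the CpG dinucleotides that the other 7 promoters hold. The letters GGAATG, which TEAD factors, the partners of the Wwtr1 product, bind, occurred on either strand in 1 of the 8 promoters, that of Acan, 11 bases before its start, and in 14.2% of all promoters. The AP-1 letters TGANTCA occurred in 0 of the 8 and in 7.33% of all, and the Acan match overlapped no other.

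Beyond these genes, 85 related genes in 8 lists were examined, and 0 of the 57 measured at an average of 1 FPKM or more were 2-fold apart. Counts of intervals beyond 1 are given for each list and, where it holds 3 or more genes of at least 1000 reads, for those genes, which are to be read against the 30.0% above 1 and 29.3% below 1 of all genes of that depth. In the hyaluronan breakdown list, 8 of 8 genes were measured, 1 with an interval above 1 and 1 below. The median log2 ratio of -0.03 became 0.01 after rescaling to TPM and 0.0004 at an average of 5 FPKM or more. Cemip, which binds and depolymerises hyaluronan, was at 1.88 FPKM in siYthdf3 against 2.78 FPKM in siNC, for a ratio of 0.678 (counting interval 0.559 to 0.823). Cemip2, a hyaluronidase of the cell surface, went the other way at 7.82 FPKM against 5.97 FPKM, for a ratio of 1.31 (counting interval 1.19 to 1.44). Hyal2 had a ratio of 0.805 (counting interval 0.624 to 1.04). Ugdh, which makes the UDP-glucuronate that hyaluronan and chondroitin sulfate chains are built from, had a ratio of 0.806 (counting interval 0.701 to 0.928).

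Of 10 genes of hyaluronan binding and transfer, 2 were measured. Hmmr, a hyaluronan-binding protein that also works at the mitotic spindle, was at 17.5 FPKM in siYthdf3 against 28.0 FPKM in siNC, for a ratio of 0.624 (counting interval 0.579 to 0.673). The markers of dividing cells moved with it, as 7 of 7 had an interval below 1, among them the 5 with at least 1000 reads, and their summed level was 118 FPKM against 239 FPKM. Itih5, of the family that hands heavy chains to hyaluronan, had a ratio of 1.77 (counting interval 1.28 to 2.49). Cd44 and Hmmr, both hyaluronan receptors, thus differed in opposite directions.

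Of 5 other chondroitin sulfate proteoglycan genes measured, 4 had an interval above 1 and 0 below, with a median log2 ratio of 0.26. Among the 4 of at least 1000 reads, 3 lay above and 0 below. Bgn, which encodes the small proteoglycan biglycan, had a ratio of 1.44 (counting interval 1.13 to 1.84), and the testican genes Spock2 and Spock1 had ratios of 1.24 and 1.20. Cspg5, with a ratio of 0.939, had an interval that includes 1, and Cspg4, under the filter on level, had a ratio of 0.641 (counting interval 0.465 to 0.882), both chosen after their values were seen.

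Among the 15 measured enzymes of chondroitin sulfate chain synthesis, 5 had an interval above 1 and 2 below, with a median log2 ratio of 0.03. Of the 4 with at least 1000 reads, 3 lay above and 1 below. Xylt1, which attaches the first sugar of the chain to the core protein, was at 17.3 FPKM in siYthdf3 against 11.8 FPKM in siNC, for a ratio of 1.46 (counting interval 1.36 to 1.57). Among the sulfotransferase genes, a pair had intervals away from 1, on opposite sides. Chst11, which sulfates carbon 4 of the chain's galactosamine, was at 9.73 FPKM against 6.08 FPKM, for a ratio of 1.60 (counting interval 1.36 to 1.89). Chst3, which sulfates carbon 6, was at 3.38 FPKM against 5.82 FPKM, for a ratio of 0.581 (counting interval 0.511 to 0.660). The quotient of Chst11 over Chst3, formed after their values were seen, was 2.88 in siYthdf3 and 1.04 in siNC. Chst12, Chst7, Chst14, Chst15 and Ust, also chosen after their values were seen, had intervals that include 1. Sulfation itself was not measured.

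Proteases that cut lecticans and their inhibitors had a median log2 ratio of 0.05 over 10 measured genes, with 2 intervals above 1 and 4 below. Of the 3 with at least 1000 reads, 0 lay above and 1 below. The sign of this median changed without the filter on low values and at an average of 5 FPKM or more. Mmp9, a gelatinase that remodels perineuronal nets, was at 2.53 FPKM in siYthdf3 against 4.85 FPKM in siNC, for a ratio of 0.521 (counting interval 0.426 to 0.637). The inhibitor Timp1 had a ratio of 0.714 (counting interval 0.603 to 0.847) and the aggrecanase family gene Adamts8 one of 0.688 (counting interval 0.521 to 0.909).

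Cell surface partners had a median log2 ratio of 0.09 over 15 measured genes, with 8 intervals above 1 and 3 below. Of the 11 with at least 1000 reads, 7 lay above and 2 below. Mdk encodes midkine, a ligand of Ptprz1. It was at 20.1 FPKM against 32.0 FPKM, for a ratio of 0.629 (counting interval 0.547 to 0.724). Ptn, which encodes the related ligand pleiotrophin and was chosen after its values were seen, was at 517 FPKM against 549 FPKM, for a ratio of 0.941 (counting interval 0.922 to 0.962). The log2 ratio of Ptn was -0.09, and the median of genes within 1.5-fold of its 1755 bases was -0.07. Nfasc, a cell adhesion gene of axons, had a ratio of 1.55 (counting interval 1.45 to 1.66), and the tenascin-C receptor subunit gene Itga9 one of 1.73 (counting interval 1.34 to 2.24).

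**Figure D4:**
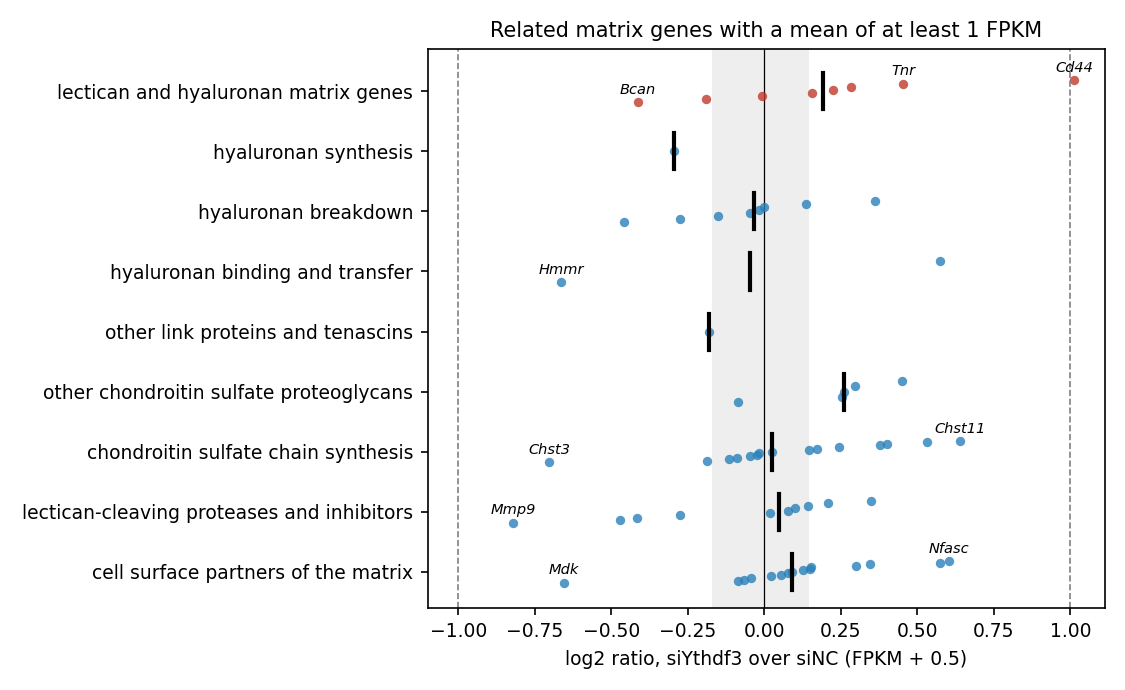
Log2 ratios of siYthdf3 over siNC (FPKM + 0.5) for the matrix genes (red) and 8 related lists (blue), 1 point per gene with an average of 1 FPKM or more; thick black bars are list medians, the grey band spans the quartiles of all genes (-0.17 to 0.14) and dashed lines mark 2-fold. Cd44 is the only point past a dashed line, and the lists other than hyaluronan synthesis and the link proteins, with 1 point each, hold points on both sides of 0.

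Markers of cell types that make these genes were examined beside them, and in bulk RNA fewer cells of a type and less RNA per cell cannot be told apart. Interval counts of markers with at least 1000 reads are to be read against the 30.0% above 1 and 29.3% below 1 given above. Astrocytes are known to make Cd44, Tnc and Bcan. Of their 10 markers, of any depth, 3 had an interval above 1 and 4 below. Levels were 2.37 to 141 FPKM in siYthdf3 and 2.75 to 68.2 FPKM in siNC, with a summed level of 269 FPKM against 208 FPKM. Gfap supplied this difference, since the other 9 markers summed to 128 FPKM in siYthdf3 against 140 FPKM in siNC. Of the 6 markers with at least 1000 reads, 1 lay above 1 and 3 below. Gfap, the filament gene of mature and reactive astrocytes, had a ratio of 2.07 (counting interval 1.99 to 2.15), close to that of Cd44, and the glutamate transporter gene Slc1a2 one of 1.87 (counting interval 1.51 to 2.34). The gap junction gene Gja1, at 0.606 (counting interval 0.550 to 0.667), and the growth factor receptor gene Fgfr3, at 0.638 (counting interval 0.590 to 0.690), both chosen after their values were seen, went the other way.

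Radial glia and progenitors, which make Tnc and Ptprz1, had 7 of 9 markers with an interval below 1 and 0 above, and 6 of the 6 with at least 1000 reads lay below. Their levels ran from 0.743 to 862 FPKM in siYthdf3 and 1.65 to 1105 FPKM in siNC, and their summed level was 1387 FPKM against 2052 FPKM. Without Fabp7, the most abundant, the other 8 summed to 526 FPKM in siYthdf3 against 948 FPKM in siNC. Vim had a ratio of 0.504 (counting interval 0.493 to 0.515) and Eomes one of 0.171 (counting interval 0.118 to 0.244), beside ratios of 1.11 for Tnc and 0.994 for Ptprz1.

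Oligodendrocyte lineage cells are known to make Bcan, Tnr and Ptprz1. Of 9 markers, 7 were measured, 4 with an interval below 1 and 0 above. Only 2 had at least 1000 reads, of which 1 lay below and 0 above. The list ranged from 0.0719 to 39.0 FPKM in siYthdf3 and 0.256 to 37.8 FPKM in siNC, and summed to 57.7 FPKM against 69.1 FPKM. The highest value in each library was that of Mog, chosen after its values were seen, with a log2 ratio of 0.04. Without Mog the other 8 summed to 18.8 FPKM in siYthdf3 against 31.3 FPKM in siNC. Olig2 had a ratio of 0.546 (counting interval 0.490 to 0.608) and Olig1 one of 0.565 (counting interval 0.481 to 0.664). They lay on the same side of 1 as Bcan and on the other side from Tnr.

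Of 11 neuronal markers, 8 had an interval above 1 and 1 below, and 2 included 1. Among the 10 with at least 1000 reads, 7 lay above and 1 below. The markers ranged from 3.79 to 263 FPKM in siYthdf3 and 2.25 to 260 FPKM in siNC, with a summed level of 1115 FPKM against 971 FPKM. The vesicular glutamate transporter gene Slc17a7 had a ratio of 1.68 (counting interval 1.33 to 2.13) and the neurofilament gene Nefm one of 1.42 (counting interval 1.38 to 1.47).

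Microglia and fibroblasts can also make Cd44. The 7 microglial markers summed to 4.04 FPKM against 7.95 FPKM, with a range of 0 to 1.24 FPKM in siYthdf3 and 0.0283 to 3.32 FPKM in siNC. Of 3 measured, 2 had an interval below 1 and 0 above, and 0 had at least 1000 reads. Tyrobp had a ratio of 0.202 (counting interval 0.0793 to 0.457) and Aif1 one of 0.523 (counting interval 0.362 to 0.751). P2ry12, the other measured marker, chosen after its values were seen, was at 1.24 FPKM against 0.858 FPKM, for a ratio of 1.45 with an interval of 0.987 to 2.15. Cx3cr1, chosen likewise and under the filter on level, had 0 reads in siYthdf3 and 2 in siNC. Of 8 fibroblast, pericyte and meningeal markers, 6 were measured, 2 with an interval above 1 and 3 below. Only 2 had at least 1000 reads, of which 2 lay above and 0 below. The range of the 8 was 0.0304 to 147 FPKM in siYthdf3 and 0 to 121 FPKM in siNC, and they summed to 161 FPKM against 136 FPKM. Col3a1 had a ratio of 0.454 (counting interval 0.343 to 0.599) and Col1a2 one of 0.571 (counting interval 0.482 to 0.676). Markers of contractile cells, chosen after their values were seen, went the other way, with Myh11 at a ratio of 1.53 (counting interval 1.38 to 1.70) and Acta2 at 1.22 (counting interval 1.16 to 1.27). Without Acta2 the other 7 summed to 14.0 FPKM in siYthdf3 against 15.2 FPKM in siNC. All 5 endothelial markers were below 1 FPKM, with sums of 0.686 FPKM and 0.949 FPKM. The part of any cell type in the matrix gene differences was not tested.

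**Figure D5:**
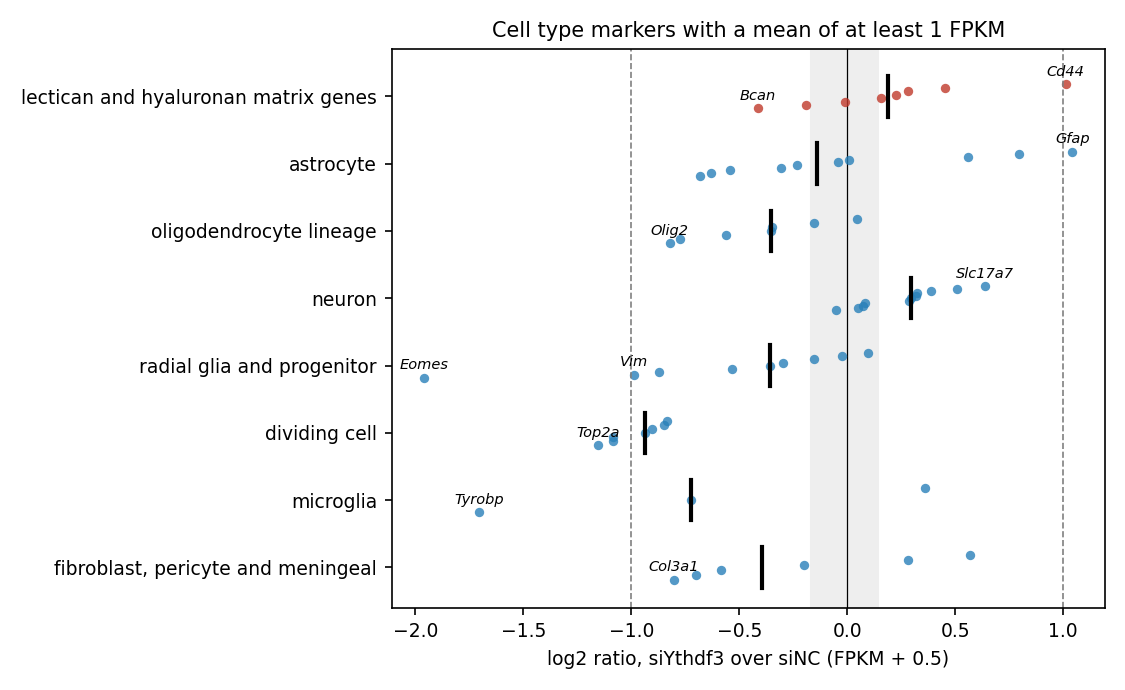
Log2 ratios of siYthdf3 over siNC (FPKM + 0.5) for the matrix genes (red) and markers of 7 cell classes (blue), 1 point per gene with an average of 1 FPKM or more; thick black bars are list medians, the grey band spans the quartiles of all genes (-0.17 to 0.14) and dashed lines mark 2-fold. Astrocyte markers spread to both sides with Gfap at 1.04 near Cd44 at 1.01, and every dividing cell marker lies below 0.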

How the data were processed

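The authors deposited 1 table of FPKM values with gene lengths in bases, Ensembl gene identifiers, symbols and coordinates, per the file headers. Per the labels' protocols, libraries carried unique molecular identifiers and were read as paired ends. The submitters' processing notes name STAR 2.7.6a, fastp 0.23.2, featureCounts with Subread 1.5.1, StringTie 2.1.4 and edgeR 3.40.2, without saying what each did. Overlapping genes are uncertain, because strand use was unknown, as were identifier collapsing, genome build and annotation, each of them not given in the sources used here.

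FPKM times length gave whole reads for 100% of values within 0.05 of a read. The reads set the intervals: exact Clopper-Pearson 95% intervals of a gene's share of reads in siYthdf3, converted to an FPKM ratio, and exact Poisson intervals of levels. The interval of the lectican sum is a normal one from Poisson variances. They cover counting error only and are too narrow where reads copy 1 molecule. Apart from these intervals, the floor for a count of 0 was set at 3 reads, or 0.133 FPKM in siYthdf3 and 0.195 FPKM in siNC for a gene of 1 kilobase. The exact Poisson interval of a count of 0 reaches somewhat higher than this floor. Log2 ratios used a pseudocount of 0.5 FPKM, which makes differences of low genes look smaller. The 13172 of 21224 genes that averaged 1 FPKM or more were counted as tested or measured.

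The genes described and the lists were chosen with earlier results of these data known. Named from each related list were the 3 genes with the largest absolute log2 ratio and any 2-fold apart, and from each cell type list the 2 largest. No gene was named for likeness of pattern, since each gene has only 1 difference. Of 85 related genes, 78 matched a symbol. Promoters came from RefSeq (GRCr8). Alternatives were other pseudocounts, filters, scalings and fold rules and removal of a lowess trend with length. The procedure was tested on simulated data. Calculations used Python 3.11.15, matplotlib 3.10.9, statsmodels 0.14.6, scipy 1.17.1, pandas 2.3.3 and numpy 2.4.6.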

Additional observations from a re-analysis of the deposited data

How the results depend on the processing

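The log2 ratios of Bcan, Ncan, Vcan, Tnr, Tnc, Has2, Cd44, Acan and Hapln1 kept their sign under the 7 alternatives tried for each, while that of Ptprz1 was -0.01 as reported, 0.04 after rescaling to TPM and 0.00 after centring on the median of all genes. The number of genes at least 2-fold higher was 1 as reported and 0 at a pseudocount of 1 FPKM or with the length trend removed, since Cd44 ranged from 1.00 to 1.07, and the number at least 2-fold lower was 0 under all 10 alternatives. The 4 alternatives for the intervals were all added after the data were seen: the number above 1 stayed at 5 under each, and 2 genes instead of 1 had an interval below 1 with the length trend removed. The ratio of summed lecticans was 1.16 as reported, 1.16 without mitochondrial and top 20 genes and 1.20 after rescaling to TPM. It was not computed with the length trend removed, which lowered the log2 ratio of Ncan to 0.19 and that of Vcan to 0.14. Medians of the lists of 1 or 2 measured genes changed sign with the filter or the scaling, so no direction is given for them. Acan and Hapln1, with 69 and 10 reads over both libraries, are limited by depth. No paired analysis was possible because each group had 1 library.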
